A study of Mus musculus with 8 samples.

Results

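The genes described here are 10 imprinted genes, picked by their symbols from the 57180 rows of the count table of control and Rax-SmoCKO embryonic mouse retinas. Dlk1, Meg3, Rian and Mirg lie in the chromosome 12 cluster that ends at Dio3, and Igf2, H19, Peg3, Peg10, Plagl1 and Grb10 lie in imprinted domains elsewhere. Of these 10 genes, 9 passed a filter of 5 counts or more in 4 or more libraries and were tested among 14730 genes, and Igf2 was not. Retinas were isolated from 4 control samples, which were homozygous for the conditional Smo allele (Smo CKO/CKO) and carried no Cre, and from 4 Rax-SmoCKO samples, Smo CKO/CKO with a Rax-Cre transgene. Rax-Cre is a BAC transgene driven by the regulatory region of the eye-field gene Rax, all lines were kept on a CD1 background, and no group with Cre and intact Smo was included. The results of the study place the retinas at E13.5 and the series design at embryonic day 13, whereas the ages in the sample labels rise by 1 per sample from day 13 to day 20. The methods count 5 Rax-SmoCKO samples, of which 4 were analysed here, and whether a library is a single embryo or a pool is not stated, so p-values reflect only the spread among these libraries, which may be technical.

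An imprinted gene is transcribed mainly from the copy inherited from a single parent, a state set by DNA methylation laid down in the germ line. Several imprinted genes act on growth: Igf2 is a secreted growth factor, Grb10 is an adaptor that restrains insulin and insulin-like growth factor receptors, and Plagl1 is a zinc finger factor known to activate other imprinted genes. In the chromosome 12 cluster the protein-coding genes Dlk1, Rtl1 and Dio3 are expressed from the paternal copy, and the noncoding RNAs Meg3, Rian and Mirg from the maternal copy. A count per gene adds up both copies, so none of the values below says which copy was read.

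Libraries held 3017480 to 4615667 counts, and gene levels are in CPM, that is counts scaled to the TMM-adjusted size of each library. Each read marks the 3′ end of a transcript, so CPM do not grow with transcript length and allow a rough comparison between genes. The comparison is limited for Meg3 and Igf2, whose 3′ ends overlap other annotated genes, as given below. Smo, the target of the deletion, had 16.4 to 23.9 CPM in control and 2.86 to 4.97 CPM in Rax-SmoCKO libraries (log2 fold change -2.50, edgeR adjusted p = 0.000254), although which part of the gene is deleted is not stated. Retinal progenitor markers summed to 5936 to 6653 CPM in all libraries. Markers of lens summed to 21215 CPM in control replicate 2 and 514 CPM in Rax-SmoCKO replicate 2, against 9.97 to 100 CPM in the other 6 libraries. Periocular mesenchyme and red cell markers were highest in Rax-SmoCKO replicate 2, at 408 CPM and 3818 CPM, and Rax-SmoCKO replicates 2 and 3 were the libraries with Y-linked counts, 1131 and 893. Pigment epithelium markers summed to 117 to 419 CPM in control and 142 to 850 CPM in Rax-SmoCKO, highest in Rax-SmoCKO replicate 3. In bulk samples, fewer cells of a type and less RNA per cell cannot be told apart.

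None of the 9 tested genes passed the test for a difference between Rax-SmoCKO and control retinas. At an adjusted p under 0.05, 0 of 9 passed in edgeR's quasi-likelihood test, against 0.095% of all tested genes (14 of 14730, 0.0339% higher and 0.0611% lower, and 0.0407% when an absolute log2 fold change over 1 is also asked), and 0 of 9 passed with the DESeq2 Wald test or with limma-voom. At an unadjusted p under 0.05, 0 of 9 passed, against 9.48% of all tested genes. In each of the 10 genes the ranges of the groups overlapped, whereas 5.7% of all tested genes had groups that did not overlap. The log2 fold changes of the 9 genes lay between -0.26 and 0.28, 6 above 0 and 3 below, with a median of 0.011 beside -0.0018 over all tested genes. Exact permutation tests on the CPM of the 10 genes (two-sided, n = 4 per group) gave p from 0.229 to 1, where the smallest p that 4 against 4 libraries allow is 0.0286.

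**Figure D1:**
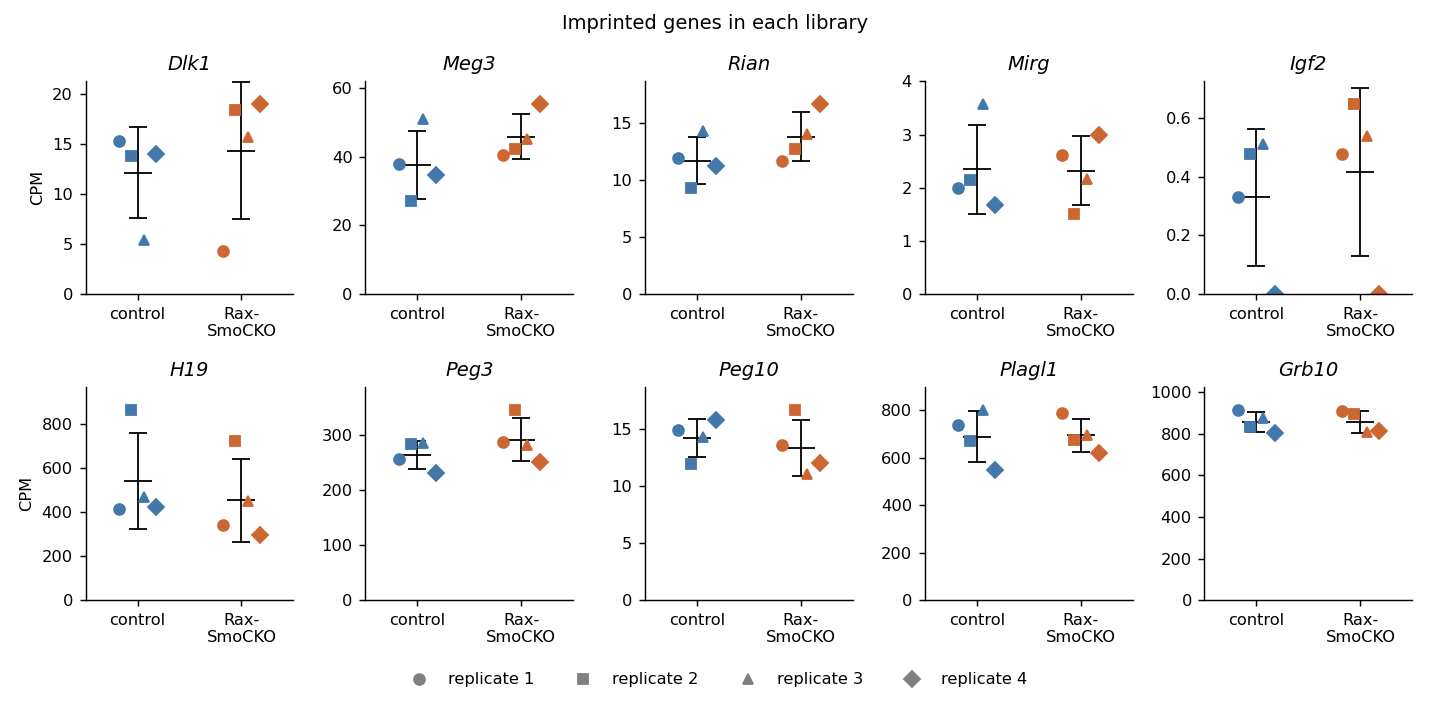
CPM of the 10 imprinted genes (vertical axes from 0, a scale for each gene) in the 4 control and 4 Rax-SmoCKO libraries. Symbols give the replicate number, and horizontal bars with whiskers give the mean and SD. The groups overlap in every panel. Dlk1 has a low library in each group, and H19 a high library in each group.

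The 9 tested genes spanned a wide range of levels, in the same order in both genotypes apart from Peg10. Grb10 was the most abundant, ranked 81 among the 14730 tested genes by mean CPM, followed by Plagl1 at rank 127, H19 at rank 245 and Peg3 at rank 688. Grb10, Plagl1 and H19 together made up 82.9% to 87.2% of the summed CPM of the 10 genes, which was 2083 to 2735 CPM per library. Grb10 exceeded Plagl1 in each of the 8 libraries, H19 lay above or below Plagl1 depending on the library (ratio of counts 0.437 to 1.29), and Peg3 lay below H19 in each of the 8. Meg3 came next at rank 5434, and Peg10, Dlk1 and Rian, at ranks 9014, 9130 and 9236, could not be ordered beyond their spread. Mirg, at rank 13163, was below these in each library. The row of Igf2 held fewer counts still, and its limits are given with it.

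Of the chromosome 12 genes Meg3 was the most abundant. It is a long noncoding RNA that lies on chromosome 12 from 109541001 to 109571726 on the plus strand of GRCm38, and deletions that remove it from the maternal copy alter expression across the cluster in mouse. It had 37.8, 27.1, 50.9 and 34.5 CPM in control replicates 1 to 4 and 40.6, 42.3, 45.0 and 55.3 CPM in Rax-SmoCKO replicates 1 to 4. Control replicate 3 was the second highest of the 8 libraries, and the other 3 controls lay below all 4 Rax-SmoCKO libraries. The means were 37.6 ± 9.92 CPM (SD, n = 4) in control and 45.8 ± 6.61 CPM (SD, n = 4) in Rax-SmoCKO, for a log2 fold change of 0.28 (SE 0.16, edgeR adjusted p = 0.623). The 95% confidence interval of the fold was 0.948 to 1.55. Without control replicate 3, the 1 control inside the Rax-SmoCKO range, the log2 fold change was 0.47 (edgeR adjusted p = 0.440). Leaving it out makes the groups separate, which fixes the exact permutation p at 0.0286, the smallest that 3 against 4 libraries allow. Of the 130 exact permutation p-values over the 10 genes and all settings, this was the 1 under 0.05. Without control replicate 2, the lowest library, the log2 fold change was 0.14 (exact permutation p = 0.429). Without Rax-SmoCKO replicate 4, the highest, the log2 fold change was 0.18 (exact permutation p = 0.457). On the opposite strand, the annotation places Gm26906 over 426 of the last 500 bases at the 3′ end of Meg3. Gm26906 was not analysed here, and whether reads were counted by strand is not stated. Ganglion cell markers summed to 5185 to 6262 CPM in control and 5882 to 8197 CPM in Rax-SmoCKO, with 13 of 14 above 0, beside 7308 of all 14730 tested genes. At an unadjusted p under 0.05, 11 of the 14 were higher, beside 707 of all tested genes. Of the 14, 0 passed in edgeR and 3 with the DESeq2 Wald test. Rax-SmoCKO replicate 4 was highest in both this sum and Meg3. Both were also high in Rax-SmoCKO replicate 3 (6432 and 45.0 CPM) and low in control replicate 2 (5263 and 27.1 CPM), but other libraries did not keep the same order. Control replicate 4 had the highest control sum and 34.5 CPM of Meg3, and control replicate 3 had 5396 CPM and 50.9 CPM of Meg3. Rax-SmoCKO replicate 1 had the second highest sum, 6530 CPM, and the lowest Meg3 of its group. The part of these markers in the values of Meg3 was not tested.

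Rian moved with Meg3 from library to library. Rian, the host of box C/D small nucleolar RNAs, lies from 109603940 to 109661716 on the same strand. Its levels were 11.9, 9.27, 14.3 and 11.2 CPM in control and 11.7, 12.7, 14.0 and 16.7 CPM in Rax-SmoCKO libraries, lowest and highest in the same libraries as Meg3. The means ± SD of 4 libraries were 11.7 ± 2.08 CPM in control and 13.8 ± 2.15 CPM in Rax-SmoCKO, for a log2 fold change of 0.23 (SE 0.18, edgeR adjusted p = 0.731). Leaving out each library in turn gave 0.13 (without control replicate 2, and also without Rax-SmoCKO replicate 4) to 0.35 (without control replicate 3). The ratio of Meg3 to Rian counts was 2.92 to 3.55 in control and 3.21 to 3.47 in Rax-SmoCKO, a narrower range than either gene alone. Across the 8 libraries, Rian had the highest Pearson r with Meg3 on log2(CPM + 1) of the 9437 genes with a mean of at least 10 CPM (r = 0.98), ahead of Cadps (r = 0.95), Ankra2, Hsdl1 and Azin2 (r = 0.94, 0.94 and 0.93). These correlations describe 8 libraries that differ in depth and in their share of other cell types, as the marker sums above show. Cadps encodes a protein of dense-core vesicle release.

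**Figure D2:**
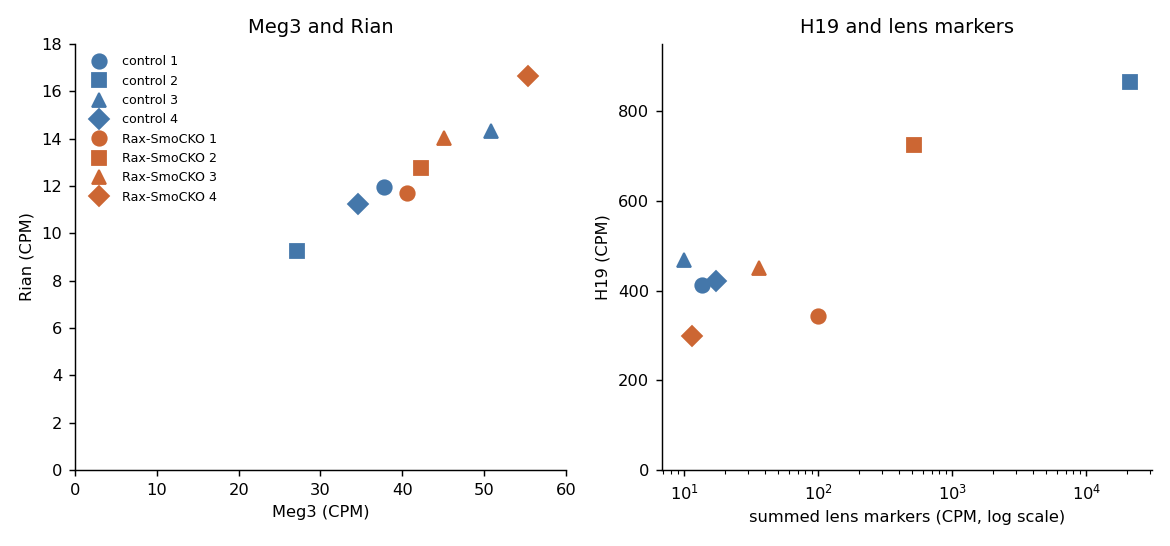
Left, CPM of Meg3 and Rian in each of the 8 libraries. Right, H19 (CPM) against the summed CPM of the lens markers on a log scale. Symbols give the replicate and colours the genotype. Meg3 and Rian vary together across libraries of both genotypes, and H19 is highest in the 2 libraries with the most lens marker counts.

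Sequences of the Meg3 start and of miRNAs inside these RNAs are shown because the count table reads the host transcripts and hardly reads their small RNAs. RefSeq (GRCm38.p6) gave promoter windows, 250 bases before to 50 after a start in RefSeq, for 8 of the 10 genes, 13 windows in all. The windows of Mirg (chr12:109734731-109735030) and Plagl1 (chr10:13090582-13090881) lie inside the gene positions given here, not at their starts. The window of Meg3 at chr12:109540746-109541045, plus strand, is printed with motif matches in capitals.
Meg3 promoter: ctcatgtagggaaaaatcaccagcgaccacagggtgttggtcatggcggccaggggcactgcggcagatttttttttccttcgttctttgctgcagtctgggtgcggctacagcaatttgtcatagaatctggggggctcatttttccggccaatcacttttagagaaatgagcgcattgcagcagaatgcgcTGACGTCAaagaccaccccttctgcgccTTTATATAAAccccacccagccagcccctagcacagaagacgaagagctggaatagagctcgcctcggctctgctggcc
The capitals mark the cAMP response element TGACGTCA and, further along, the TATA motif TATAAA found on both strands in an overlapping stretch. TGACGTCA occurs in 1.79% of the 32851 RefSeq windows of this length, searched on both strands, and in the windows of Meg3 and Peg3 here. TATAAA occurs in 13.6% of windows, and of the 10 genes in that of Meg3 alone, as well as in the window of Dio3. The Gli motif GACCACCCA, the letters bound by the transcription factors at the end of the Hedgehog pathway, occurs in 0.253% of windows and in 0 of the 13, which says only that these letters are not in these windows. A match is a description of letters and not of a bound site.

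RefSeq places 114 mature miRNAs between Dlk1 and Dio3. Within Meg3, Rian and Mirg, a few stand for their hosts, with the seed (bases 2 to 8) in capitals.
miR-770-5p: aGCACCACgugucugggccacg
miR-370-3p: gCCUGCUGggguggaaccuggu
miR-134-5p: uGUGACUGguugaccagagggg
miR-410-3p: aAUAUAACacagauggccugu
miR-453: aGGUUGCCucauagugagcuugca
miR-496a-5p: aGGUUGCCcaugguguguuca
The first is inside Meg3, the next inside Rian and the other 4 inside Mirg. Mirg spans 26 mature miRNAs from 14 miRNA genes with 25 different seeds, and miR-453 and miR-496a-5p are the pair that share a seed, GGUUGCC. In the count table, the interval held 59 miRNA and 18 small nucleolar RNA rows, of which 72 were at 0 in all 8 libraries.

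Mirg itself, the miRNA-containing gene at 109729764 to 109749460, was close to the limit of the depth. Its counts were 6 to 14 per library and 70 in all, that is 1.99, 2.14, 3.58 and 1.68 CPM in control and 2.62, 1.51, 2.16 and 3.0 CPM in Rax-SmoCKO. The groups covered nearly the same range, with means of 2.35 ± 0.84 and 2.32 ± 0.64 CPM (SD, n = 4 each). The log2 fold change was -0.055 (SE 0.36, edgeR adjusted p = 0.976), and differences inside the interval of the fold, 0.563 to 1.65, were not detectable at this depth. The coefficient of variation between control libraries was 35.8%, beside 33.8% from counting error alone. With the ratio of Rian to Mirg counts at 4 to 8.43, the 3 noncoding genes kept the order Meg3, Rian, Mirg in each of the 8 libraries.

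Dlk1, at the opposite end of the cluster from Dio3 (109452823 to 109463336), had the widest relative spread of the 4 between libraries. Dlk1 encodes a transmembrane protein with epidermal growth factor repeats, related to Notch ligands and known for holding back adipocyte differentiation. It had 15.3, 13.8, 5.37 and 14.0 CPM in control and 4.29, 18.4, 15.6 and 19.0 CPM in Rax-SmoCKO libraries. Control replicate 3 and Rax-SmoCKO replicate 1 were low, at 21 and 18 counts, and the other 6 libraries lay between 13.8 and 19.0 CPM. The means ± SD of 4 libraries were 12.1 ± 4.54 CPM in control and 14.3 ± 6.84 CPM in Rax-SmoCKO, for a log2 fold change of 0.24 (SE 0.39, edgeR adjusted p = 0.894). Without control replicate 3 the log2 fold change was -0.014, and without Rax-SmoCKO replicate 1 it was 0.56. Its coefficient of variation was 37.5% in control and 47.8% in Rax-SmoCKO, beside 15.1% and 13.5% from counting error. Meg3 was at 50.9 and 40.6 CPM in these libraries, and the ratio of Meg3 to Dlk1 counts reached 9.48 and 9.44 in them, against 1.97 to 2.91 in the other 6. The genes most like Dlk1 across the 8 libraries were Use1 (r = 0.95), Dusp6 (r = 0.94), Tpbg and Vps29 (r = 0.93 each) and Mcat (r = 0.92). Dusp6 encodes a phosphatase that dampens ERK signalling, and had 82.6 to 110.7 CPM with a log2 fold change of 0.052 (edgeR adjusted p = 0.898).

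Dio3, the deiodinase that inactivates thyroid hormone, lies at the other end of the cluster, which spans 828 kb from the start of Dlk1 to the end of Dio3. It had 32.2 to 50.1 CPM in control and 15.1 to 27.3 CPM in Rax-SmoCKO, for a log2 fold change of -0.92 (SE 0.17, edgeR adjusted p = 0.0914). It did not pass in edgeR, although its groups did not overlap, and it passed with the DESeq2 Wald test (adjusted p = 0.000871). Dio3os, the antisense RNA that starts beside it, had 8.74 ± 1.10 CPM in control and 7.57 ± 0.99 CPM in Rax-SmoCKO (mean ± SD, n = 4), for a log2 fold change of -0.21 (SE 0.19, edgeR adjusted p = 0.775). The ratio of Meg3 to Dio3 counts was 0.597 to 1.58 in control and 1.72 to 2.80 in Rax-SmoCKO. These ratios do not overlap between the groups, and neither do the values of Dio3 alone. The ratio of Dlk1 to Dio3 counts did overlap, at 0.167 to 0.329 in control and 0.182 to 1.21 in Rax-SmoCKO. The difference between the changes of Dio3 and Meg3 was not tested.

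Between Dlk1 and Dio3 the annotation lists 118 genes, 99 of which had a row in the table. All 8 libraries were at 0 in 80 of these rows, and 9 rows were tested. Besides the named genes these were Gm37899 (log2 fold change 0.053), the pseudogene Gm3379 (log2 fold change -0.10) and Gm34785 (log2 fold change -0.74, edgeR adjusted p = 0.699). Rtl1, the retrotransposon-derived coding gene of the cluster, had 1 count over the 8 libraries together. Outside the cluster on the Dlk1 side, Wdr25 and Begain had log2 fold changes of 0.19 and 0.13.

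**Figure D3:**
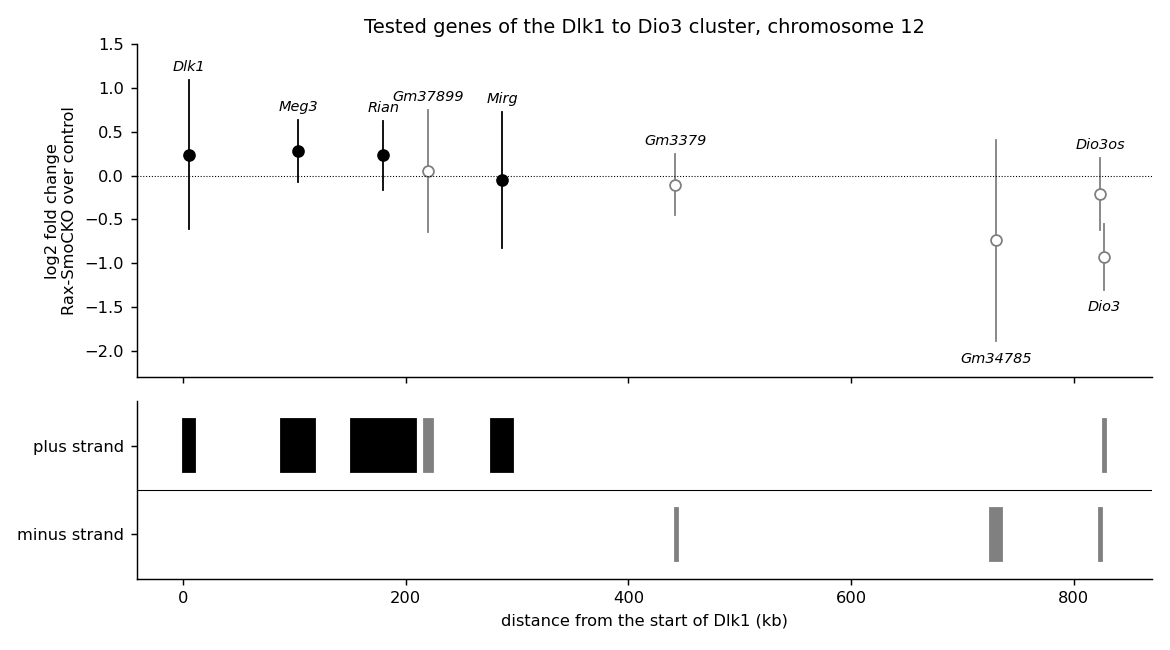
Log2 fold changes of Rax-SmoCKO over control with 95% confidence intervals from edgeR for the 9 tested genes from Dlk1 to Dio3, placed by distance in kb from the start of Dlk1 (lower panel, gene positions by strand, narrow genes widened to 3 kb). Filled points are Dlk1, Meg3, Rian and Mirg, whose intervals include 0. The interval of Dio3 lies below 0.

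H19 and Igf2 share an imprinted domain on chromosome 7, and of the pair H19 alone had a row with enough counts to test. H19 is a maternally expressed long noncoding RNA at 142575529 to 142578143 on the minus strand. It had 414, 866, 469 and 423 CPM in control and 345, 724, 450 and 299 CPM in Rax-SmoCKO libraries. Replicate 2 of each group was the highest, and the other 6 libraries lay between 299 and 469 CPM. The means ± SD of 4 libraries were 543 ± 217 CPM in control and 454 ± 191 CPM in Rax-SmoCKO, for a log2 fold change of -0.26 (SE 0.27, edgeR adjusted p = 0.822). The coefficient of variation was 39.9% in control and 42.0% in Rax-SmoCKO, beside 2.20% and 2.33% from counting error. Without control replicate 2 the log2 fold change was 0.068 (edgeR adjusted p = 0.95), and without Rax-SmoCKO replicate 2 it was -0.58. Without both libraries with Y-linked counts it was -0.75.

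The 2 libraries high in H19 were those with the most lens marker counts, as the plot of H19 against lens markers shows, and Rax-SmoCKO replicate 2 was also highest in mesenchyme and red cell markers. The 20 lens markers, of which Lim2 was at 0 in all libraries, summed to 9.97 to 21215 CPM in control and 11.3 to 514 CPM in Rax-SmoCKO, and their part in the H19 counts was not tested. Without these 2 libraries the log2 fold change of H19 was -0.25 (edgeR adjusted p = 0.485). Among the genes most like H19 across the 8 libraries were Ccnd2 (r = 0.97), Tent5c (r = 0.97), Cald1 (r = 0.96) and Actn4 (r = 0.95). Ccnd2, which encodes cyclin D2, had 775 CPM in control replicate 2 and 765 CPM in Rax-SmoCKO replicate 2, against 289.7 to 487 CPM in the others. Tent5c, an RNA poly(A) polymerase gene, had 76.1 and 41.2 CPM in these libraries against 12 to 20.8 CPM.

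H19 is the host of miR-675, and its mature forms are shown from RefSeq, with the seed in capitals, because the row of this miRNA was at 0 counts in each of the 8 libraries while its host was abundant.
miR-675-5p: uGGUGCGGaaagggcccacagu
miR-675-3p: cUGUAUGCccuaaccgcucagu

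Igf2, at 142650766 to 142666816 on the same strand as H19, had 1, 2, 2 and 0 counts in control and 2, 3, 2 and 0 counts in Rax-SmoCKO libraries, 12 in all beside 15589 for H19. These counts are at or under the floor of 3 counts per library, so no fold is given. In the annotation, the protein-coding gene Gm49394 covers 62.8% of the exonic bases of Igf2 on the same strand, including 497 of the last 500 at its 3′ end, where 3′ tags fall. Gm49394 had 0 counts in each library, and the handling of reads shared by overlapping genes is not stated, so the level of Igf2 in the retina cannot be read from this row. The antisense gene Igf2os had 6.27 ± 1.28 CPM in control and 3.99 ± 1.63 CPM in Rax-SmoCKO (SD, n = 4 each), for a log2 fold change of -0.61 (SE 0.30, edgeR adjusted p = 0.551).

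Peg3 and Peg10 are paternally expressed genes known for roles in growth and in the placenta. Peg3, a zinc finger protein gene on chromosome 7 (6703892 to 6730431, minus strand), had 257, 284, 286 and 231 CPM in control and 288, 346, 283 and 251 CPM in Rax-SmoCKO libraries. The groups overlapped, with Rax-SmoCKO replicate 2 highest. The means ± SD of 4 libraries were 265 ± 25.8 CPM in control and 292 ± 39.5 CPM in Rax-SmoCKO, for a log2 fold change of 0.14 (SE 0.10, edgeR adjusted p = 0.678), and the interval of the fold was 0.955 to 1.28. Without Rax-SmoCKO replicate 2 the log2 fold change was 0.051, and without control replicate 4, the lowest library, 0.086. Among its most similar genes over the 8 libraries were Efna5 (r = 0.95), Armcx5 and Wwc2 (r = 0.94 each). Efna5, which encodes a guidance ligand of Eph receptors, had 166 to 206 CPM in control and 195 to 242 CPM in Rax-SmoCKO libraries.

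The promoter window of Peg3 (chr7:6730370-6730669, minus strand) is shown because it held a match to the motif of Plagl1, another of the 10 genes.
Peg3 promoter: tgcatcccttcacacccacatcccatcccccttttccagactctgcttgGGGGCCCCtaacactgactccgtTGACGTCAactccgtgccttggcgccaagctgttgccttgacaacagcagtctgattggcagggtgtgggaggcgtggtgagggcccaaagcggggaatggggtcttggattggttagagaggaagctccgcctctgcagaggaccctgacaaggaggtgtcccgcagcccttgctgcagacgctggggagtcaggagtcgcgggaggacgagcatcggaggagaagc
The capitals mark, in order, the Plagl1 motif GGGGCCCC and the cAMP response element TGACGTCA. GGGGCCCC occurs in 1.08% of the 32851 windows and in 1 of the 13 windows of these genes. Plagl1 and Peg3 had a Pearson r of 0.49 over the 8 libraries. Plagl1 had r of 0.73 with Grb10 and 0.50 with Mirg, the latter at 6 to 14 counts per library. Whether Plagl1 acts on Peg3 was not tested.

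Peg10, a coding gene derived from a retrotransposon, on chromosome 6 (4747306 to 4760517, plus strand), had levels close to those of Dlk1 and Rian. It had 14.9, 11.9, 14.3 and 15.7 CPM in control and 13.6, 16.6, 11.1 and 12 CPM in Rax-SmoCKO libraries. The highest and the lowest library were both Rax-SmoCKO. The means ± SD of 4 libraries were 14.2 ± 1.65 CPM in control and 13.3 ± 2.44 CPM in Rax-SmoCKO, for a log2 fold change of -0.077 (SE 0.17, edgeR adjusted p = 0.925), and the coefficient of variation in control, 11.6%, was below the 13.9% that counting error gives, whereas in Rax-SmoCKO it was 18.3% beside 13.8%.

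Plagl1 and Grb10 were the most abundant of the 10. Plagl1, a transcription factor gene on chromosome 10 (13060504 to 13131694, plus strand), had 737, 670, 802 and 551 CPM in control and 788, 675, 698 and 620 CPM in Rax-SmoCKO libraries. Replicate 4 was the lowest of each group. The means ± SD of 4 libraries were 690 ± 107 CPM in control and 695 ± 69.9 CPM in Rax-SmoCKO, for a log2 fold change of 0.011 (SE 0.10, edgeR adjusted p = 0.985), with a fold interval of 0.866 to 1.17.

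Grb10, on chromosome 11 (11930508 to 12038683, minus strand), had 914, 832, 877 and 802 CPM in control and 910, 897, 807 and 812 CPM in Rax-SmoCKO libraries. All 8 libraries lay within 802 to 914 CPM, and both groups averaged 856 CPM (SD 49.3 in control and 54.7 in Rax-SmoCKO, n = 4 each). The log2 fold change was 0.00044 (SE 0.054, edgeR adjusted p = 0.999), and the interval of the fold, 0.922 to 1.08, was the narrowest of the 9. The ratio of Plagl1 to Grb10 counts was 0.686 to 0.915 in control and 0.753 to 0.865 in Rax-SmoCKO, and their Pearson r over the 8 libraries was 0.73.

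**Figure D4:**
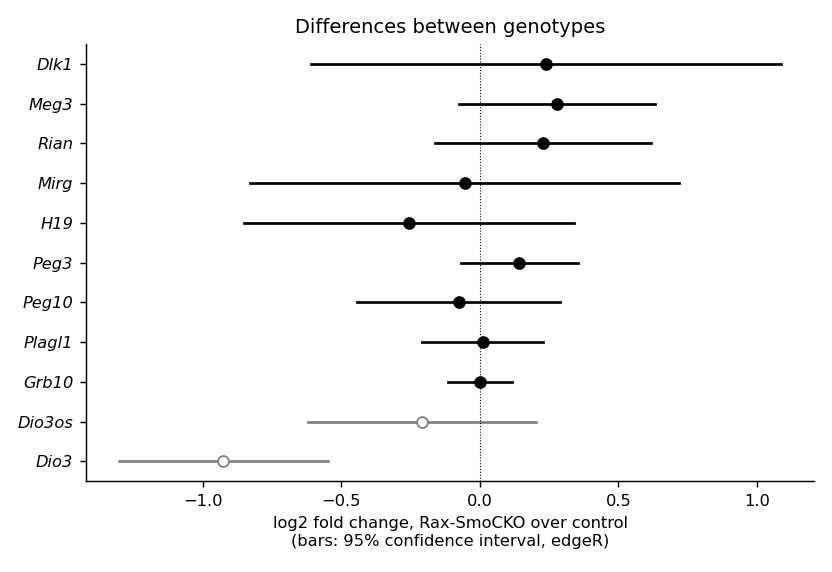
Log2 fold changes of Rax-SmoCKO over control with 95% confidence intervals from edgeR. Filled points are the 9 tested imprinted genes, and open points their neighbours Dio3os and Dio3. The intervals of the 9 genes include 0, with Grb10 the narrowest and Dlk1 the widest.

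Other imprinted genes of the retina were counted from lists put together with earlier results of these data known. Of 18 tested paternally expressed genes, which include Dio3, 0 passed in edgeR, 11 were above 0 and 7 below, with a median of 0.025. At an unadjusted p under 0.05, 1 was higher and 2 were lower, and Dio3 was the 1 that passed with DESeq2. Of all 14730 tested genes, 707 were higher and 690 lower at that unadjusted p, and 7308 were above 0. Ndn, the Prader-Willi region gene necdin, had 170 ± 12.4 CPM in control and 198 ± 16.1 CPM in Rax-SmoCKO (SD of 4 libraries, log2 fold change 0.22, edgeR adjusted p = 0.403). The groups of Ndn did not overlap, at 153 to 180 CPM and 181 to 219 CPM, as in 5.7% of all tested genes. Mest, a gene of the hydrolase fold family, had 454 ± 24.6 and 392 ± 62.0 CPM (log2 fold change -0.21, edgeR adjusted p = 0.514), and Nap1l5 had a log2 fold change of 0.57 (edgeR adjusted p = 0.541). Of 9 tested maternally expressed genes, 0 passed in edgeR, in DESeq2 or in limma-voom, 6 were above 0 and 3 below, with a median of 0.10. Copg2, a subunit of the COPI coat, was the 1 with an unadjusted p under 0.05 (79.9 ± 9.32 and 66.5 ± 3.57 CPM, log2 fold change -0.27, edgeR adjusted p = 0.354). Igf2r, the receptor that clears Igf2, Gnas and Ube3a had log2 fold changes of 0.22, 0.084 and 0.10. The groups of Gnas did not overlap, at 495 to 528 CPM in control and 531 to 551 CPM in Rax-SmoCKO (edgeR adjusted p = 0.569).

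Grb10 and Igf2 act in insulin-like growth factor signalling, and of 21 tested genes of that pathway 0 passed in edgeR, DESeq2 (which gave 1 of them no adjusted p) or limma-voom. With no filter on low counts, edgeR called Igf1 higher and Igfbp7, a secreted binding protein, lower. Igfbp7 had 128 CPM in control replicate 2, the library richest in lens markers, against 4.97 to 8.70 CPM in the other controls and 3.67 to 20.7 CPM in Rax-SmoCKO, and with the filter its log2 fold change was -1.76, or 0.78 without that library. Above 0 were 15 and below 0 were 6, with a median of 0.15, and at an unadjusted p under 0.05 4 were higher and 2 lower. Over all 14730 tested genes, 7308 were above 0, and 707 were higher and 690 lower at that unadjusted p. Igf1, the second ligand, had 6.79 ± 2.71 CPM in control and 15.6 ± 8.22 CPM in Rax-SmoCKO (SD of 4 libraries, log2 fold change 1.23, SE 0.35, edgeR adjusted p = 0.283). Its groups overlapped, at 4.86 to 10.7 and 8.67 to 27.4 CPM, and its highest library, Rax-SmoCKO replicate 2, was also the highest in mesenchyme, endothelium and red cell markers, whose part in its counts was not tested. Without that library its log2 fold change was 0.79 (edgeR adjusted p = 0.374). Igf2bp1 and Igf2bp2, RNA-binding proteins named for binding Igf2 mRNA, had log2 fold changes of -0.19 each (edgeR adjusted p = 0.382 and 0.455). Grb14, the close relative of Grb10, had 4.85 ± 1.37 and 7.56 ± 1.62 CPM (log2 fold change 0.64, edgeR adjusted p = 0.471), and Igf1r had a log2 fold change of 0.15.

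Among 11 tested genes that maintain imprints, 0 passed in edgeR, DESeq2 or limma-voom, and 3 were above 0 and 8 below, with a median of -0.034. Of those below, 3 had an unadjusted p under 0.05, where 690 of all 14730 tested genes were lower. Uhrf1, which brings the maintenance methyltransferase to replicating DNA, had 134 ± 5.07 CPM in control and 109 ± 6.18 CPM in Rax-SmoCKO (SD of 4 libraries, log2 fold change -0.29, SE 0.064, edgeR adjusted p = 0.154), and its groups did not overlap. Dnmt1, that methyltransferase, had 177 ± 13.8 and 175 ± 11.6 CPM (log2 fold change -0.012, edgeR adjusted p = 0.974). Smchd1, Naa10 and Trim28 had log2 fold changes of -0.16, -0.41 and -0.097. Of 8 tested Polycomb genes, which encode partners reported for Meg3 RNA, 0 passed in any of these tools and 0 had an unadjusted p under 0.05, with Suz12, Eed, Ezh2 and Aebp2 at -0.086, -0.12, -0.060 and -0.074. Of 15 tested Notch pathway genes, taken because Dlk1 resembles Notch ligands, 0 passed in any of these tools, 6 were above 0 and 9 below (median -0.028), and Hes1, a target of Notch, had a log2 fold change of -0.16 (edgeR adjusted p = 0.359).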

How the data were processed

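RNA of isolated retinas was sequenced from its 3′ ends (QuantSeq forward, with molecular identifiers). Per the study's methods, the authors cleaned the reads, mapped them to mouse and tabulated featureCounts counts per Ensembl gene. The submitters' processing notes list limma, STAR 2.7.0e and the builds GRCm38, GRCh38 and mm10. Collapsing of identifiers is not stated. The deposited table holds whole-number counts of 8 libraries and the authors' mean signal of each group, which was not used. Titles and genotypes gave the groups.

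Testing used edgeR 4.0.16 (R 4.3.3): TMM, a quasi-likelihood fit with group as the sole term, and p-values adjusted by Benjamini-Hochberg over the 14730 genes that reached 5 counts in 4 or more libraries. The SE is the absolute log2 fold change over the square root of F. Replicate libraries differed by more than sampling noise in every pair (chi-square over its degrees of freedom 2.30 to 10.9). The 525 rows that lack a symbol held 0.094% of counts. The fit was tested on simulated data. Positions and overlaps are from GENCODE M21 (GRCm38).

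The members and lists were chosen with earlier results of these data known, and the motifs after windows had been read. Named are the 10 genes, tested genes of the cluster, up to 4 genes with the smallest p in each list, the 5 genes most like each of Meg3, H19, Dlk1 and Peg3 (Igf2 was too low), apart from some that are not reported here, and a few others chosen after their values were seen (Gnas, Dnmt1, Igf2os). Alternatives were library size alone, size factors and Wald test of DESeq2 1.42.0, limma-voom (limma 3.58.1), a 10-count minimum, no filter, a replicate block, and leaving out each library, the 2 with Y-linked counts or the 2 richest in lens genes. Figures were drawn with matplotlib 3.10.9.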

Additional observations from a re-analysis of the deposited data

Results flagged for a closer look

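In the 20 groups checked for a library far from the others (4 libraries each, where chance flags about 1 in 20 groups), 2 were found. Dlk1 in control replicate 3, at 5.37 CPM, lay below the other controls by 0.852 of the range of the group. H19 in control replicate 2, at 866 CPM, lay above the other controls by 0.878 of the range of the group.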

How the results depend on the processing

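Over 14730 genes 14 were called, against 289 with no filter, 57 with the DESeq2 Wald test and 38 with the replicate number as a block, all including those 14, and 12 to 19 without each library in turn. Of 152 alternatives run on the 9 tested genes, 135 kept the sign, 17 reversed it and 0 passed, the lowest adjusted p being 0.156, for H19 with the replicate block. Same-numbered libraries had correlations of -0.056 to 0.236, so the numbers were not taken as pairs, and not every library correlated best with its own number. For Dio3, the block gave an adjusted p of 0.0472, no filter 1.44e-07 and leaving out control replicate 3 0.0399.

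Leaving out each library in turn, the log2 fold change was -0.014 to 0.56 for Dlk1, 0.14 to 0.47 for Meg3, 0.13 to 0.35 for Rian, 0.051 to 0.21 for Peg3, -0.18 to 0.23 for Mirg, -0.58 to 0.068 for H19, -0.21 to 0.0044 for Peg10, -0.080 to 0.092 for Plagl1 and -0.027 to 0.033 for Grb10. The sign reversed without control replicate 3 (Dlk1, Mirg), control replicate 2 (H19, Plagl1, Grb10), control replicate 4 or Rax-SmoCKO replicate 1 (Plagl1, Grb10), Rax-SmoCKO replicate 2 (Mirg, Grb10) and Rax-SmoCKO replicate 3 (Peg10). Without the 2 libraries with Y-linked counts it was -0.11 for Dlk1 and 0.23 for Mirg. Without the 2 richest in lens genes it was 0.067 for Mirg and -0.032 for Grb10, and with the replicate block -6.9e-05 for Grb10. The causes were not tested. Mirg gave no value at a minimum of 10 counts.

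The exact permutation p on CPM, leaving out each library, ranged from 0.0571 to 1 for Dlk1, 0.0286 (without control replicate 3) to 0.457 for Meg3, 0.4 to 0.943 for Mirg, 0.171 to 0.971 for Igf2, 0.229 to 0.914 for H19, 0.457 to 1 for Plagl1 and 0.629 to 0.886 for Grb10. The 0.0286 came from leaving out the 1 control inside the Rax-SmoCKO range of Meg3, which makes the groups separate. Without the Y-linked libraries this exact p, with the direction reversed, was 0.933 for Dlk1, 0.533 for Mirg and 0.867 for Igf2, and without those rich in lens genes 0.8 for Mirg and 0.9 for Grb10. With 4 libraries a group, 0 calls does not show equal levels, and the intervals above give the folds that remain compatible with the values.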
